A study of Drosophila melanogaster with 2 samples.

Results

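Integrins are transmembrane receptors, each an alpha and a beta chain, that hold cells to the extracellular matrix. Inside the cell, talin binds the tail of the beta chain, vinculin joins talin to actin, and a complex of integrin-linked kinase, parvin and PINCH steadies the link. In the Drosophila embryo these proteins are best known for attaching muscles to tendon cells. The genes described here are 8 members of this machinery among 18164 annotated genes: Vinc (vinculin), rhea (talin), mys (the betaPS chain), if (inflated, the alphaPS2 chain), mew (multiple edematous wings, the alphaPS1 chain), Ilk (integrin-linked kinase), parvin, and stck (steamer duck, which encodes PINCH). They were chosen by their part in integrin adhesion, to stand with Vinc, with the signal and rank of the regions at these genes already known. All values below are therefore descriptions, and no test was run on them.

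The measurements are chromatin immunoprecipitation with sequencing (ChIP-seq) of a CG4707 protein with GFP at its C-terminal end, in whole Drosophila melanogaster embryos of both sexes at 0 to 14 h. Both libraries come from a transgenic line that stably expresses the fusion, and the labels do not give the promoter that drives it. There is 1 group with 2 biological replicates, numbered 2 and 3, and no other genotype, treatment or time. The labels conflict on the libraries: the assay and antibody fields describe an immunoprecipitation of CG4707, and a free-text field names them as input. They were read as immunoprecipitations. CG4707 occupancy in a few cells and weak occupancy in many cells cannot be told apart in whole embryos, and region lists hold no expression values by which the tissue could be checked.

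The deposited data are 4 lists of regions on dm6: 30000 regions called in each replicate, 30000 called on the pooled reads, and 3470 peaks that passed the authors' reproducibility threshold. The lists of 30000 are labelled as peaks and background, the input to the reproducibility step. A region in them, above all one of low rank, is therefore not by itself a site of CG4707. Each region has a summit, its point of highest signal, and a signal value in the unit of the authors' caller. The lists give no read counts, so the depth of the libraries is unknown. The scale of the signal is not described in the labels, so signals were compared only within a list, and ranks (1 is the highest) were set side by side between lists. The 3470 peaks are the 3470 pooled regions of highest signal, down to a signal of 118. A region was assigned to a gene when its summit lay in the gene body or within 2 kb of it. By this rule the 8 genes held 11 peaks and 91 pooled regions.

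Sequence from the Release 6 genome is shown for 5 of the 11 peaks, 100 bases either side of the pooled summit and on the coding strand of the gene named. Capitals mark matches to the motifs searched, on either strand: CACTGTGC, ACAGTGGG, their shared core ACAGTG, the GAGA motif GAGAGAG and the promoter element TATCGATA. The first 3 are words that were frequent in the peaks of these same libraries, so their presence in a peak is not independent evidence. The Vinc peak (chrX:2222309-2222509, minus strand) is shown because it is the highest of the 11 and holds a long match. The rhea peak (chr3L:8547840-8548040, plus strand) has the only other ACAGTG, and the mys peak (chrX:8061012-8061212, plus strand) has the GAGA repeats. The mew peak (chrX:13257083-13257283, minus strand) has its summit on a TSS, and the stck peak (chr3R:8355669-8355869, plus strand) is the next highest after Vinc. Neither of these holds any of the 5 motifs.
Vinc: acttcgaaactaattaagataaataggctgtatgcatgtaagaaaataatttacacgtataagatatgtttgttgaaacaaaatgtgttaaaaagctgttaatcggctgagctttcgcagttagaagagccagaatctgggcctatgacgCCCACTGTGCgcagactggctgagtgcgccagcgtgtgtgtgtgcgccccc
rhea: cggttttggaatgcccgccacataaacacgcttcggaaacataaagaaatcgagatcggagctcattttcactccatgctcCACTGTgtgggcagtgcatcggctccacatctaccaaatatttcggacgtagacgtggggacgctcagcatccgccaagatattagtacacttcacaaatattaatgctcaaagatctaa
mys: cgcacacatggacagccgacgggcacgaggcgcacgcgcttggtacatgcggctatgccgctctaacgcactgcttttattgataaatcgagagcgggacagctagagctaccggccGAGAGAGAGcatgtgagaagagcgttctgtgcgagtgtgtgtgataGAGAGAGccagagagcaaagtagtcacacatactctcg
mew: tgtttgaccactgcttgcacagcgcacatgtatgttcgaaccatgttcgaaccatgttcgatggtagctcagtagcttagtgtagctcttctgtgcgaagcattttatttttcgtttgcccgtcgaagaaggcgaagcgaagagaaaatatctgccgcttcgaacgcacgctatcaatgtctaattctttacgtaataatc
stck: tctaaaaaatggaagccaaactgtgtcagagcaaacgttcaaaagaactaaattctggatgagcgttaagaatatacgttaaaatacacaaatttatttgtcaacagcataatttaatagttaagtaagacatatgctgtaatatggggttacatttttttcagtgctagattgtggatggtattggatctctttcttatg

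Peaks lay at 6 of the 8 genes. They were at Vinc, rhea, mys, if, mew and stck, and there was none at Ilk or parvin. Among all genes 22.9% had a peak by the same rule, and among protein-coding genes 24.5%. Long genes meet the rule more often, so the share was also taken by gene span. It was 18.2% for protein-coding genes under 5 kb, the class of Ilk, parvin and stck, of which 1 had a peak. It was 34.3% at 5 to 10 kb, where Vinc and mys both had one, and 50.8% at 20 to 50 kb, where rhea, if and mew all had one. With the gene bodies alone only Vinc, rhea and mew were left, because the peaks of mys, if and stck lie outside the gene.

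A stricter reading asks for a peak summit at most 500 bp from a transcription start site (TSS) of the gene. Only Vinc and mew met it, 2 of 8 genes, against 10.5% of all genes and 12% of protein-coding genes. With the 3470 highest regions of replicate 3 in place of the peaks, without replicate 2, 4 genes met it, since if and mys were added. Pooled regions of any strength were more widespread. All 8 genes had a pooled summit within 500 bp of a TSS, against 43.3% of all genes and 47.1% of protein-coding genes. Shares by the TSS rule were not matched for the number of TSSs of a gene, and rhea has 4. Some of these regions were weak, at pooled rank 20885 for parvin and 11991 for Ilk, and mys had none in replicate 2. Nothing particular to the 8 genes is read from this count. A pooled summit in the body or within 2 kb, which all 8 have as well, was found at 71.3% of protein-coding genes.

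**Figure D1:**
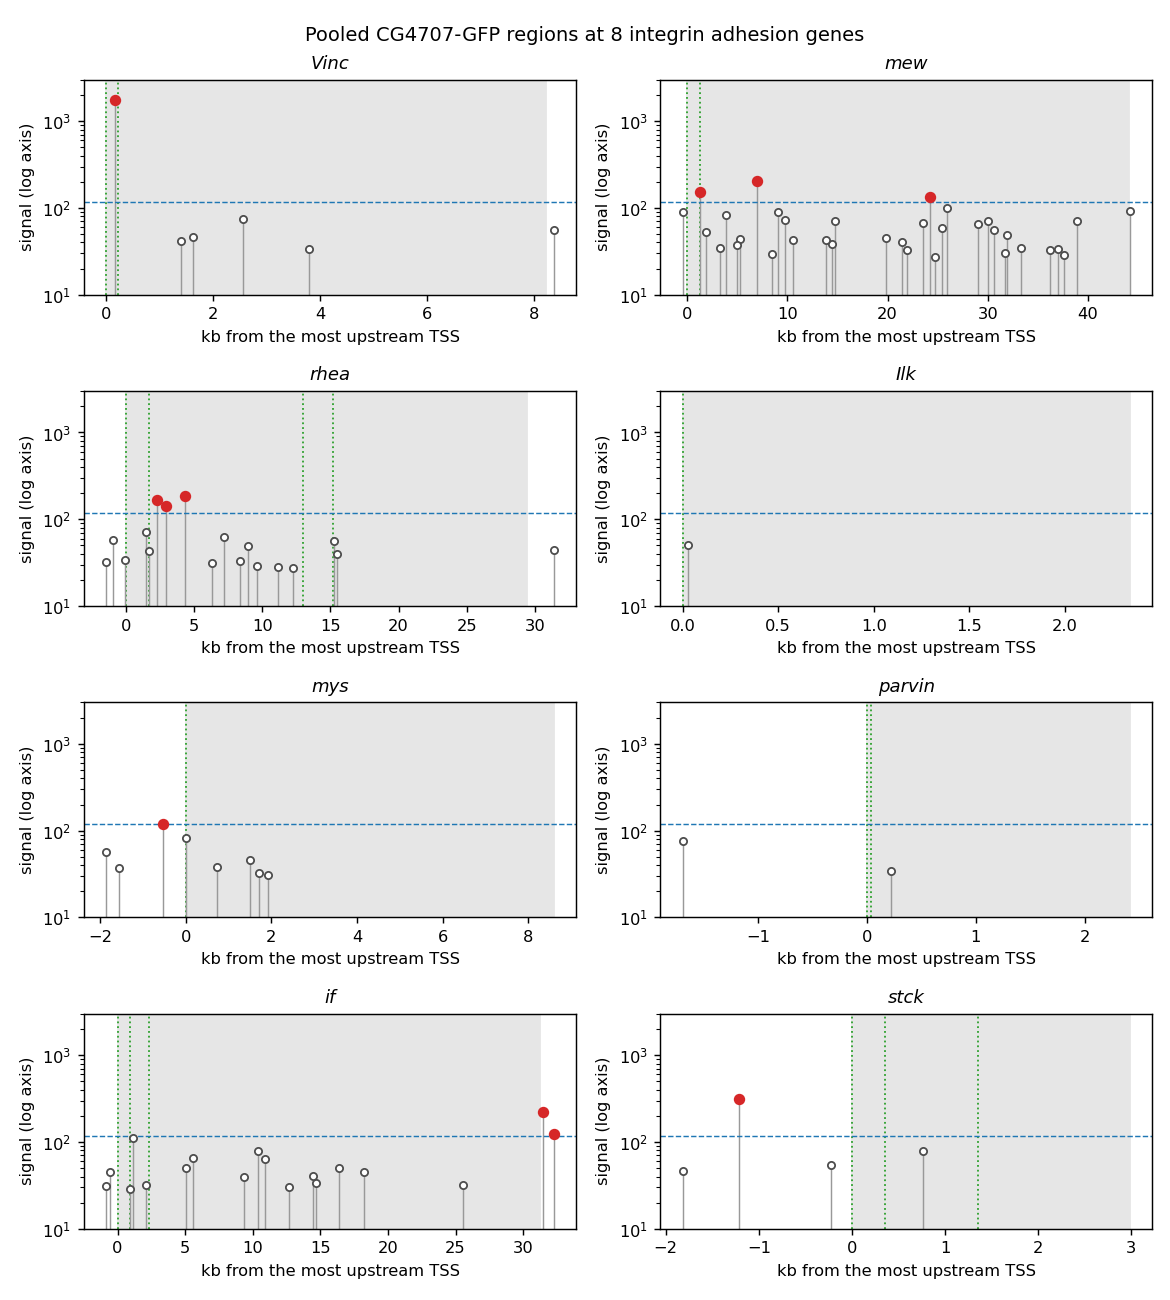
Each panel plots the signal of the pooled regions (log axis) of one gene against the distance of the summit from the most upstream TSS in kb, with the gene body in grey, annotated TSSs as dotted green lines and the lowest signal of a peak (118) as a dashed blue line. Filled red points are peaks and open points are regions below the threshold; Vinc stands apart at 1764, the peaks of if lie past the end of the gene, and Ilk and parvin have no filled point.

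Vinc encodes vinculin, which binds actin and, at integrin adhesions, talin. The gene spans 8.22 kb on the minus strand of chromosome X, from 2214347 to 2222567, and has 2 annotated TSSs, 219 bp apart. Its peak, from 2222156 to 2222781, ranked 20 in the pooled list with a signal of 1764. In replicate 2 it ranked 17 with a signal of 870.2, and in replicate 3 it ranked 25 with a signal of 896. The replicates thus placed the peak within 8 ranks of each other among 30000 regions. The pooled summit lay between the TSSs, 158 bp downstream of the upstream one and 61 bp upstream of the other, in an intron. The replicate summits lay 57 and 54 bp upstream of that downstream TSS.

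The Vinc region is 626 bp wide, while 54.8% of the 3470 peaks have the median width of 380 bp and 2.94% are wider than 400 bp. Each replicate reported another summit in the same region, on the far side of the upstream TSS. In replicate 2 it was strong, at rank 91 with a signal of 452 and 40 bp upstream of that TSS. In replicate 3 it was weak, at rank 4546 with a signal of 52.9 and 87 bp upstream. The pooled list has no separate summit there, so the replicates agree on the main summit and differ on the other.

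The 10 capitals in the Vinc sequence are CACTGTGC and the other strand of ACAGTGGG, which overlap on 1 site. CACTGTGC occupies X 2222350 to 2222357, which is 9 to 2 bases upstream of the downstream TSS. Its centre is 55 bp from the pooled summit, so it lies inside the 100 bp window searched but outside one of 50 bp. The other pooled regions of Vinc were far weaker. There are 5, with signals from 33.8 to 74.3 and ranks from 6919 to 21670. Of these, 4 lie in introns, 1174 to 3560 bp downstream of a TSS, and the remaining one lies 147 bp past the end of Vinc and 391 bp upstream of the TSS of SmydA-8. The strongest of the 5, at 2332 bp, had a replicate 2 summit within 100 bp (rank 4967) and none of replicate 3. The region at 1174 bp, which holds ACAGTGGG, had one of replicate 3 (rank 5427) and none of replicate 2.

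The genes next to Vinc in pooled rank were taken among peaks within 500 bp of a TSS. Above it stood px at rank 18 (signal 1874, summit 209 bp upstream of the TSS) and RecQ4, a DNA helicase gene, at rank 19 (signal 1796, 43 bp upstream). Below it stood Ptpmeg2, a protein tyrosine phosphatase gene, at rank 21 (signal 1752, 173 bp upstream) and spi at rank 22 (signal 1747, 124 bp upstream). The gene spi encodes Spitz, a ligand of the EGF receptor. This likeness is one of pooled rank, over 1 group of 2 replicates.

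rhea encodes talin, which couples the integrin beta chain to the cytoskeleton. It spans 29.4 kb on chromosome 3L, from 8545001 to 8574409 on the plus strand, and has 4 annotated TSSs. All 3 of its peaks are intronic and lie 590, 1265 and 2649 bp downstream of the TSS at 8546675. The one at 2649 bp was highest, at pooled rank 1694 (signal 185), with rank 1626 and signal 96.8 in replicate 2 and rank 1660 and signal 98.2 in replicate 3. The one at 590 bp had pooled rank 2041 (signal 165), rank 1868 in replicate 2 and rank 2532 in replicate 3. The one at 1265 bp, which holds ACAGTG, had pooled rank 2603 (signal 142), rank 4071 in replicate 2 and rank 2354 in replicate 3. The first of these was the most even between replicates, and the last fell outside the top 3470 of replicate 2.

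The TSSs of rhea themselves carried weak regions. The highest of the 5 pooled regions within 500 bp of a rhea TSS had rank 7233 and a signal of 72.1, with its summit 192 bp upstream of the TSS at 8546675. The rest of the 18 pooled regions of rhea were spread over the upstream flank and the introns and 5' UTRs of the 5' part, from 1432 bp upstream of the gene to 338 bp past the most downstream TSS. A single further one lay 1990 bp past the 3' end, near the TSS of CG6638.

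mys encodes the betaPS chain, the common partner of the alphaPS chains in the embryo. It spans 8.59 kb on the plus strand of chromosome X, from 8061645 to 8070237. Its TSS lies 209 bp from one of fs(1)h, a bromodomain protein gene on the opposite strand. The peak of mys had pooled rank 3395 and signal 119.9, just above the threshold. Its summit lies 533 bp upstream of mys and only 138 bp upstream of the nearest TSS of fs(1)h, so the rule assigns it to mys while distance puts it at fs(1)h. In replicate 2 this region ranked 1931 (signal 87.5), and in replicate 3 it ranked 4599 (signal 52.6), below the 3470 highest.

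The replicates differed at the mys promoter. A pooled region with its summit 11 bp downstream of the mys TSS had rank 5970 and signal 82.0, below the threshold. In replicate 3 the same summit ranked 1912 with a signal of 89.6, the highest region of mys in that list. In replicate 2 no summit lay within 500 bp of the mys TSS among 30000 regions. The highest region of mys therefore stood on the fs(1)h side in replicate 2 and on the mys TSS in replicate 3.

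if encodes the alphaPS2 chain, which pairs with betaPS at the muscle side of attachments. It spans 31.2 kb on the minus strand of chromosome X, from 16752189 to 16783434. Both of its peaks lie past its 3' end, 199 and 1026 bp outside the body and 29084 and 29911 bp from its nearest TSS. The nearer had pooled rank 1273 (signal 223), rank 1534 in replicate 2 (signal 99.9) and rank 1041 in replicate 3 (signal 132). Its summit lies 80 bp upstream of the TSS of the neighbour gene goe. The other had pooled rank 3290 (signal 123), rank 2147 in replicate 2 and rank 7846 in replicate 3, and lies 747 bp downstream of that TSS, in an intron. Both are thus closer to goe than to any start of if.

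At the TSSs of if only the highest region came close to the threshold. It had pooled rank 3843 and signal 109.9, with its summit 234 bp downstream of the TSS at 16782545. Replicate 3 placed it at rank 3452 (signal 62.3), just inside its 3470 highest, and replicate 2 at rank 5351 (signal 46.5), outside them. The TSS at 16781074 had a pooled region at rank 23374 (signal 32.1), and the most upstream TSS had no pooled summit within 500 bp. Replicate 2 alone had a summit there, 1 bp downstream of the most upstream TSS, at rank 12074 (signal 27.1). The 15 pooled regions of if that ranked lower than 3843 had ranks from 6254 to 27521. A pair of them upstream of the gene lie nearest the TSS of mRpL22, a mitochondrial ribosomal protein gene.

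mew encodes the alphaPS1 chain, which pairs with betaPS on the tendon and epidermal side. It is the longest of the 8 genes, at 44.1 kb on the minus strand of chromosome X, from 13214409 to 13258490. One of its 3 peaks has its pooled summit on the downstream of its 2 TSSs, at 13257183. That peak had pooled rank 2337 (signal 151), rank 1976 in replicate 2 (signal 86.2) and rank 3360 in replicate 3 (signal 63.4). The replicate summits lay 17 bp upstream and 4 bp downstream of the TSS. The upstream TSS, 1307 bp away, had no peak, and a pooled region 453 bp before it (rank 5207) lies nearer the TSS of comt.

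The other peaks of mew are intronic and narrow. The higher lay 5650 bp downstream of the nearest mew TSS, with pooled rank 1421 (signal 207), rank 1101 in replicate 2 (signal 121) and rank 1773 in replicate 3 (signal 93.9). The lower lay 22894 bp downstream, with pooled rank 2856 (signal 134), rank 3914 in replicate 2 (signal 56.8) and rank 2215 in replicate 3 (signal 82.1). They are 154 and 189 bp wide, and 22.3% of all peaks are narrower than 200 bp. The lower one is 2277 bp downstream of the TSS of CG32639, a gene within the mew locus, which is nearer to 17 of the pooled regions of mew than any mew TSS.

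The genes of the Ilk, parvin and PINCH complex differed in their regions. stck, on chromosome 3R from 8356978 to 8359964, had the peak next in rank after that of Vinc. It stood at pooled rank 745 (signal 309.7), rank 682 in replicate 2 (signal 163) and rank 907 in replicate 3 (signal 145). Its summit is intergenic, 1209 bp upstream of the first of 3 TSSs of stck, and no gene of another name has a TSS nearer to it. At the stck TSSs themselves the highest pooled region had rank 6258 (signal 79.5), with its summit 411 bp downstream of the TSS at 8357331.

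Ilk and parvin had only weak regions. Ilk, on chromosome 3L from 21216901 to 21219240, has its TSS 62 bp from that of another gene on the opposite strand. Ilk had 1 pooled region, at rank 11991 (signal 50.8) with its summit 30 bp downstream of the Ilk TSS. Replicate 3 had a summit 24 bp from it, at rank 11008 (signal 31.2). Replicate 2 had none within 100 bp, and its region nearest the TSS, 197 bp downstream, ranked 22039 (signal 17.7). parvin, on chromosome X from 19746041 to 19748458, had 2 pooled regions. The one at its own TSSs, 184 bp downstream, ranked 20885 (signal 34.7), and had a replicate 2 summit 1 bp away at rank 16283. Replicate 3 had none within 100 bp, and its summit 19 bp downstream of a TSS ranked 29752, close to the end of that list. The higher one, at rank 6673 (signal 76.2), lies 1690 bp upstream of parvin and 16 bp upstream of the TSS of COX6B. It ranked 5768 in replicate 2 and 13460 in replicate 3.

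**Figure D2:**
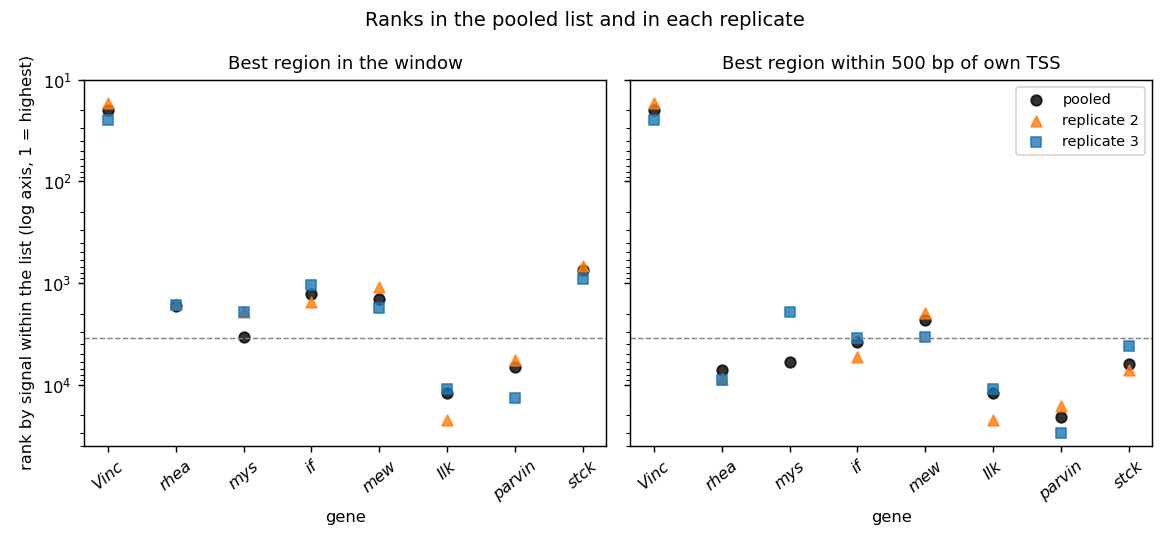
Rank by signal within the list (log axis, 1 is the highest) of the best region in the window of each gene (left) and within 500 bp of its own TSS (right), for the pooled list, replicate 2 and replicate 3; the dashed line marks rank 3470. Vinc stands at ranks 17 to 25 in both panels, stck at 682 to 907 in the left panel only, and mys has no replicate 2 point in the right panel.

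The window and the threshold each leave some peaks just outside. Between 2 and 5 kb from the gene bodies lie 4 more peaks, 2 near mys and 2 near parvin. Those near mys, 3025 and 4008 bp away, ranked 1197 (signal 231) and 165 (signal 676.5) and are nearest to TSSs of fs(1)h. Those near parvin, 2434 and 3409 bp away, ranked 3230 (signal 124) and 1863 (signal 175) and are nearest to TSSs of Abcd3. At the threshold, the mys peak (signal 119.9) is the lowest of the 11 and the if promoter region (signal 109.9) is the highest below it.

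Most pooled regions of the 8 genes lay in introns. Of the 80 below the threshold, 53 (66.2%) lay in introns and more than 500 bp from any TSS, against 44.8% of all 26530 pooled regions below the threshold. The rule takes only summits in a gene or within 2 kb of it, which leaves few intergenic ones (3.75%, against 21.1%), so part of the higher intronic share is set by the rule and nothing is read from it. Promoters held 21 of the 80 (26.2%), against 26.8%. Of the 11 peaks, 6 were intronic and 4 were at promoters, of which 2 were those of fs(1)h and goe, while 38.1% of all peaks were intronic and 45.2% at promoters. Counted over all 91 pooled regions, 35 lay nearer the TSS of another gene.

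The number of regions followed gene span. The 8 windows cover 161.3 kb and held 5.64 pooled regions and 0.682 peaks per 10 kb, against 2.24 and 0.259 over the 6 chromosome arms. Without mew, which has 34 of the 91 regions, the densities were 5.03 and 0.707. These windows hold only genes and their flanks, while the arms include long stretches with few genes. Protein-coding genes of 20 to 50 kb had a median of 8 pooled regions (5th to 95th percentile 0 to 25). rhea and if each had 18, inside this range, and mew had 34, above it. At 44.1 kb mew is long for this class, whose median span is 30.1 kb. For genes over 50 kb the range was 0 to 57.4, which holds 34. At 5 to 10 kb the median was 3 (0 to 8), and Vinc had 6 and mys 8. Under 5 kb the median was 1 (0 to 4), and Ilk had 1, parvin 2 and stck 4. rhea and mew each had 3 peaks, and 17.1% of protein-coding genes of 20 to 50 kb had at least as many.

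**Figure D3:**
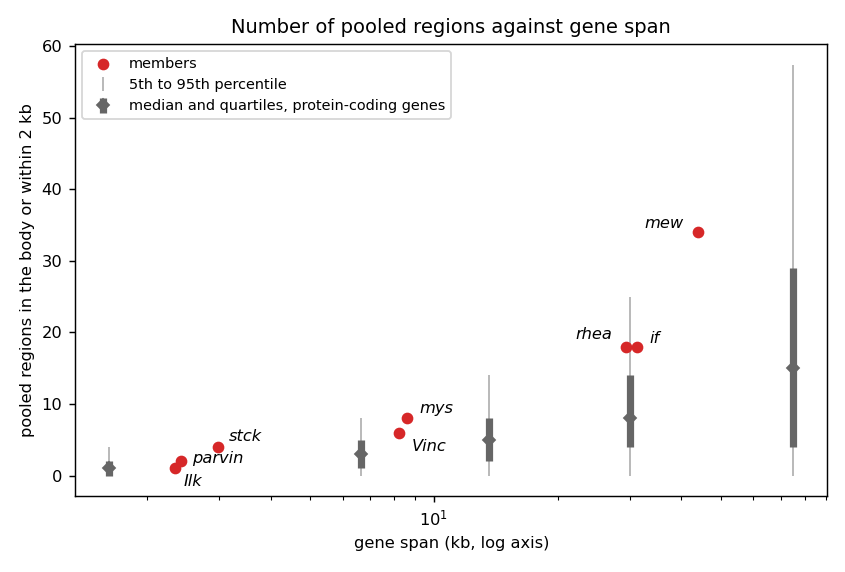
Number of pooled regions in the body or within 2 kb against gene span in kb (log axis); grey diamonds with thick and thin bars give the median, quartiles and 5th to 95th percentiles of protein-coding genes in 5 span classes, and red points are the 8 genes. mew, with 34 regions, lies above the bar of its class (0 to 25), and the other 7 lie within theirs.

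All 11 peaks had a summit of each replicate within 100 bp, as did 96.1% of all peaks. Peaks had passed the authors' reproducibility threshold, so such agreement is in part set by their selection. The pooled list holds the reads of both replicates, so it is not independent of them. Of the 80 pooled regions below the threshold, 24 (30%) had both, 45 had one of replicate 2, 51 had one of replicate 3 and 8 had neither. The share with both was 34.9% among all pooled regions below the threshold. Statements on the weak regions at the TSSs of Ilk, parvin and rhea thus rest on regions that both replicates often did not share. At the stck TSSs the region at pooled rank 6258 had both, at rank 11133 in replicate 2 and 4206 in replicate 3. The weaker one there, at pooled rank 10823, had a summit of replicate 2 only.

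Motif shares among the 11 peaks rest on at most 2 peaks each. The 8-mers CACTGTGC and ACAGTGGG were each present within 100 bp of the summit in 1 of the 11 peaks, that of Vinc, against 9.91% and 9.86% of all peaks. ACAGTG was present in 2 of 11, at Vinc and rhea, against 26.5%. GAGAGAG was present in the mys peak alone, at 3 overlapping or neighbouring starts, against 7.35% of all peaks. TATCGATA was in none of the 11 and in 2.25% of all peaks. In the 80 regions below the threshold ACAGTG was present in 13 (16.2%), against 11.8% of all such regions. CACTGTGC was present in 3 (3.75%), against 2.02%, and ACAGTGGG in 3, against 1.88%. One of the CACTGTGC regions, 1849 bp upstream of mys and 1178 bp downstream of the nearest TSS of fs(1)h, had its site centred 1 bp from the summit. The GC content of the 11 windows had a median of 38.8%, against 38.3% over all peaks, and ran from 31.3% at stck to 55.7% at mys.

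Other genes of adhesion were taken from 5 lists with 55 genes, all found in the annotation. In all, 25 of the 55 (45.5%) had a peak in the body or within 2 kb, against 24.5% of protein-coding genes and 22.9% of all genes. Within 500 bp of a TSS 10 (18.2%) had one, against 12% and 10.5%. These genes differ in span, so the window counts were also set beside protein-coding genes of the same class. Under 5 kb 3 of 12 (25%) had a peak, against 18.2%. At 5 to 10 kb it was again 3 of 12 (25%), against 34.3%. At 10 to 20 kb it was 6 of 12 (50%), against 46.5%. At 20 to 50 kb it was 11 of 15 (73.3%), against 50.8%. Over 50 kb it was 2 of 4 (50%), against 61.2%. The share was thus above that of the class in 3 classes and below it in 2. In 9 of the 25 the highest peak lay nearer the TSS of a gene of another name.

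The 5 lists are described by their counts, to be read against the shares by span given above. The median span was 4.56 kb for the integrin chains and 14.2 to 15.1 kb for the adaptor, matrix and cadherin lists. Spans within a list were mixed, from 1.8 to 38 kb among the adaptor and signalling genes. The share of a single span class is therefore no yardstick for a whole list. Among the other integrin chains 1 of 4 had a peak, scb, which encodes alphaPS3 and spans 9.71 kb, in the class with 34.3%. It ranked 881 (signal 281) with its summit 174 bp upstream of the TSS. ItgaPS5 and Itgbn had only weaker regions, and ItgaPS4 had none. Adaptor and signalling genes had a peak in 13 of 22 cases. The highest was that of wech at rank 174 (signal 645.5), though its summit is nearest to the TSS of Aldh-III. Another peak of wech lay within 500 bp of a TSS of wech itself. Next in rank among these genes came Pax, which encodes paxillin, at rank 294 (signal 495, 214 bp upstream of the TSS). It was followed by CAP, whose product binds vinculin, at rank 323 (signal 470.5, 279 bp upstream). Then came mbc, a gene of the Rac activation pathway, at rank 372 (signal 443), with its summit in the gene 2313 bp downstream of a TSS. Fak, Zyx, ics, Src42A, Fit2, p130CAS, Git, Rap1 and Rho1 had no peak.

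Matrix and ligand genes had a peak in 4 of 14 cases, all of them lower in rank than that of stck. These were trol (perlecan) at rank 1323 (signal 216), LanA (laminin alpha chain) at rank 1920 (signal 172), LanB1 at rank 2294 (signal 153) and slow at rank 2316 (signal 152). The highest peaks of trol, LanB1 and slow lay nearest to TSSs of boi, Cdc14 and Syx17. Another peak of LanB1 lay within 500 bp of a TSS of LanB1 itself. Cadherin junction genes had a peak in 2 of 7 cases. The gene cno, which encodes the afadin Canoe, had its peak at rank 62 (signal 1159.9), 1928 bp downstream of a TSS, and shg, which encodes E-cadherin, at rank 1150 (signal 235). The gene alpha-Cat, whose product also binds vinculin, had no pooled region in its window.

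Genes of muscle and tendon attachment had a peak in 5 of 8 cases, none within 500 bp of their TSSs. Their median span was 18.3 kb, and their spans ran from 9.76 to 54.4 kb, over classes where 34.3% to 61.2% of protein-coding genes had a peak. Nothing particular to this list is read from the count. Zasp52, a Z-line protein gene, ranked 264 (signal 517) and Grip ranked 304 (signal 484.5), with summits 13590 and 4399 bp downstream of their nearest TSSs. The RNA-binding protein gene how ranked 1312 (signal 218). The tendon cell transcription factor gene sr ranked 1347 (signal 215), with its summit nearest to a tRNA gene. None of the 55 genes had a peak as high as that of Vinc.

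**Figure D4:**
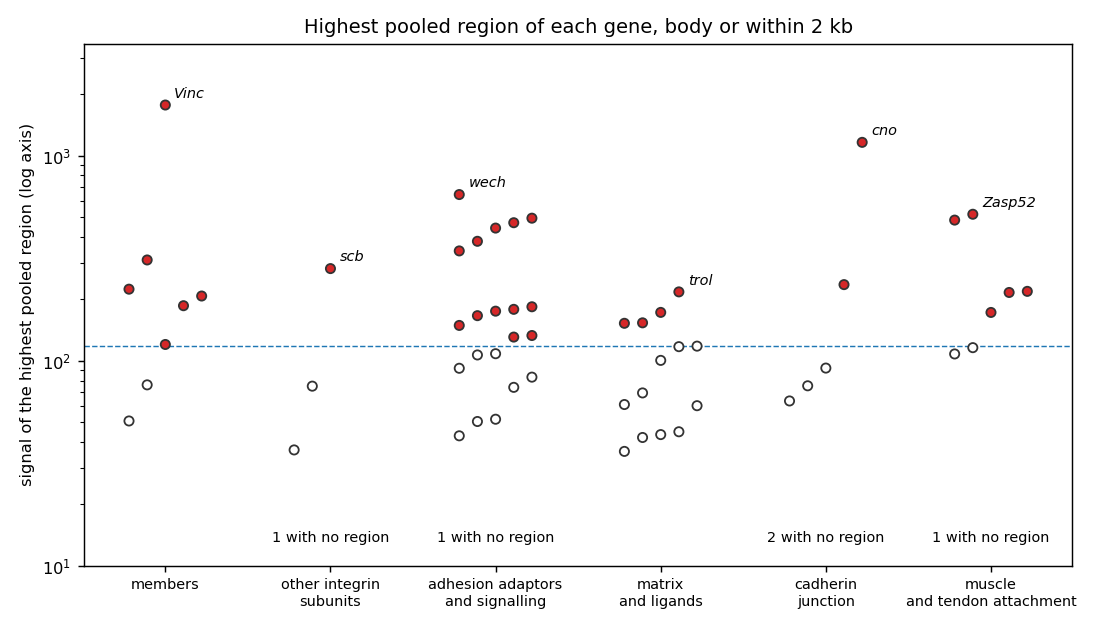
Signal of the highest pooled region of each gene (log axis), for the 8 members and the 5 lists; filled red points are at or above the lowest signal of a peak (118, dashed line), the highest gene of each list is named, and genes with no pooled region are counted at the foot. Vinc, at 1764, is the highest point, followed by cno at 1159.9.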

How the data were processed

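ChIP-seq regions of 2 biological replicates were used as deposited. Per the deposited file listing, the authors called regions for single replicates and for pooled reads, with a control alignment as background, and thresholded the pooled list for reproducibility. Per the labels, coordinates are on dm6. Aligner and peak caller: not given in the sources used here. The deposited signal is a score of the authors' caller on an unstated scale. The deposited lists also give a −log10 q-value per region, which was not used. No depth could be computed.

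Genes came from Ensembl release 115, on the assembly behind dm6, with transposable elements left out, and sequence was read from the Release 6 genome. A summit within 500 bp of any TSS was called promoter first, then UTR, exon, intron or intergenic. Motif matches on either strand, up to 100 bp from a summit, were kept even where they overlapped.

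The members, lists and motifs were chosen with earlier results of these data known. Genes named are the members, the genes whose TSS is nearest to their regions, up to 4 genes with the highest peak per list, and the 4 genes next to Vinc in rank. The genes with no peak, those near peaks just outside the windows, and those nearest the peaks of list genes were named after their values were seen. Alternatives were other flanks, windows, thresholds and TSSs, region overlap, and each replicate alone. The counting was tested on simulated data. Python 3.11.15, numpy 2.4.6, pandas 2.3.3 and matplotlib 3.10.9 were used.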

Additional observations from a re-analysis of the deposited data

How the results depend on the processing

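Of 63 values under alternative settings, 38 stayed within 1.5 times the reported count or within 1 SD of the replicates and 25 moved further, with no test involved. With no flank 3 genes had a peak in place of 6, and the peaks numbered 7 in place of 11. With the 1735 peaks of highest signal alone, the counts were 5 peaks at the members, 1 gene with a peak within 500 bp of a TSS (Vinc) and 15 of the 55 list genes. Within 1000 bp of a TSS 4 genes had a peak (Vinc, mew, mys and rhea), and with the most upstream TSS alone 1 had (Vinc). Each replicate alone gave 2 to 4 such genes within 500 bp: Vinc and mew without replicate 3, and also if and mys without replicate 2. From either replicate alone, 6 genes had a peak by the main rule. The Vinc summit lay -54 to -57 bp from its nearest TSS in the replicates, and at 158 bp from the most upstream TSS. Of 91 pooled regions, 53 had a summit of both replicates within 250 bp and 59 overlapped a region of each, against 35 within 100 bp. No paired analysis was possible because there is a single group. With 2 replicates and unknown depth, weak regions and their absence cannot be judged further.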
